A study of Mus musculus with 3 samples.

Results

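Collagens are the proteins that give the extracellular matrix its fibres and sheets, and 36 collagen genes were followed here while mouse embryonic stem (ES) cells were turned into definitive endoderm and then into early hepatic cells. The genes were taken by name: every gene probe on the array whose deposited gene name is one of the 36 was used, whatever its signal. They are 36 of the 28577 gene names with a value on all arrays, and they carry 74 probes and 92 spots per array. By the class of the protein, 10 are fibrillar, 6 belong to basement membranes and 20 are of other kinds.

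The 3 samples are ES cells (day 0), definitive endoderm (day 5) and early hepatic cells (day 7), all of the mouse ES cell line E14.1 or grown from it, with 1 array each and no replicate. The labels' protocols describe ES cells in serum-free N2/B27 medium with 10 ng/ml BMP4 and 1000 U/ml LIF, on plates coated with gelatin. For endoderm they were reseeded on plates coated with mouse collagen IV, and 30 ng/ml activin A replaced BMP4 and LIF. For early hepatic cells the culture went on for 2 more days with 30 ng/ml BMP4 and 10 ng/ml basic FGF (bFGF) beside the activin A. The protocol gives gelatin before differentiation and collagen IV from its start, but not the coating under the day 0 RNA sample itself. If that sample came from the gelatin plates, the coating and the growth factors changed together. Their parts, and that of time in culture, cannot be told apart.

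A collagen chain carries long runs in which glycine returns at a fixed step of 3 residues, and chains with such runs wind around each other into a triple helix. Fibrillar collagens are trimmed outside the cell and pack into fibres, collagen IV forms the open network of basement membranes, and the remaining types bind to fibrils, form finer networks, anchor epithelia or sit in the cell membrane. In the embryo, endoderm and other epithelia rest on basement membranes, and in the liver the fibrillar types are known mostly as products of stromal cells.

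Values are log2 of the array's background-corrected fluorescence minus that array's 75th percentile, called the normalised log2 signal below, so that 0 is the 75th percentile. For a gene with several probes, 1 represents it: the one marked well above background on more arrays than the others, or the brightest where these tied. A difference between days is called higher or lower when it reached 1 on the log2 scale (2-fold) with a probe well above background on the brighter of the 2 arrays. Where the probe was not well above background on the dimmer array, the fold is a lower limit, written "at least". Because each day has 1 array, no difference could be tested against replicates, and precision is limited by the number of arrays. The spread between spots of 1 probe was small, with a median SD of 0.080, 0.076 and 0.077 (log2) on days 0, 5 and 7 over the 193, 191 and 192 bright probes printed as 10 spots, but it leaves out culture, RNA and labelling. Of markers chosen for the labels, all 6 ES cell genes passed the 2-fold limit downward on day 7 and on day 5 against day 0. All 7 definitive endoderm genes passed it upward on both. Over all genes, 16.5% were higher and 16.1% lower on day 5, and 16.2% and 19.1% on day 7, than on day 0. Of 7 early liver genes, 6 passed the 2-fold limit upward on day 7 against day 0. The probe of Alb, which encodes albumin, was well above background on day 5 only. Of 13 visceral and parietal endoderm markers, 11 were also higher on day 7 than on day 0 and 2 were lower. Which endoderm cells gave the early liver signals was not tested. In bulk RNA such as this, more cells of a kind and more RNA per cell cannot be told apart.

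The glycine repeat can be read in the array's own oligonucleotides. Of the 41174 gene probes of 60 bases, 3 (0.00729%) hold a glycine codon at each step of 3 codons from one end to the other, and all 3 belong to collagen genes (4.1% of the 74 collagen probes). They are shown because they lie in the coding sequence of the helix, whereas most of the other probes do not show the repeat. They belong to Col5a1 (chr2:27842243-27844666, plus strand), Col5a3 (chr9:20590066-20590795, minus strand) and Col11a2 (chr17:34189287-34189453, plus strand) in mm9, and each span is longer than the probe because the probe bridges an intron. Capitals mark the in-frame glycine codons (GGN) that are followed by 2 further whole codons, so that a glycine codon cut short of its step by the probe's end stays in lower case.
Col5a1: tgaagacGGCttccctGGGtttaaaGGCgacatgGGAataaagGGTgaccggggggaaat
Col5a3: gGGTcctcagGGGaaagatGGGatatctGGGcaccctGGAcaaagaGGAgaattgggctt
Col11a2: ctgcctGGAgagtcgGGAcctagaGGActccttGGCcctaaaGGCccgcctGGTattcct
None of these 3 was the representative probe of its gene. Their own differences are given with the fibrillar genes below.

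Across the 3 arrays, the day 0 array measured 30 of the 36 genes well above background, the day 5 array 31 and the day 7 array 31. The signal was well above background on all arrays for 28 genes and on at least 1 array for 33, and these 33 entered the comparisons. The other 3, Col4a3 of the glomerular basement membrane, Col6a3 of beaded microfibrils and Col10a1 of hypertrophic cartilage, were well above background on no array.

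**Figure D1:**
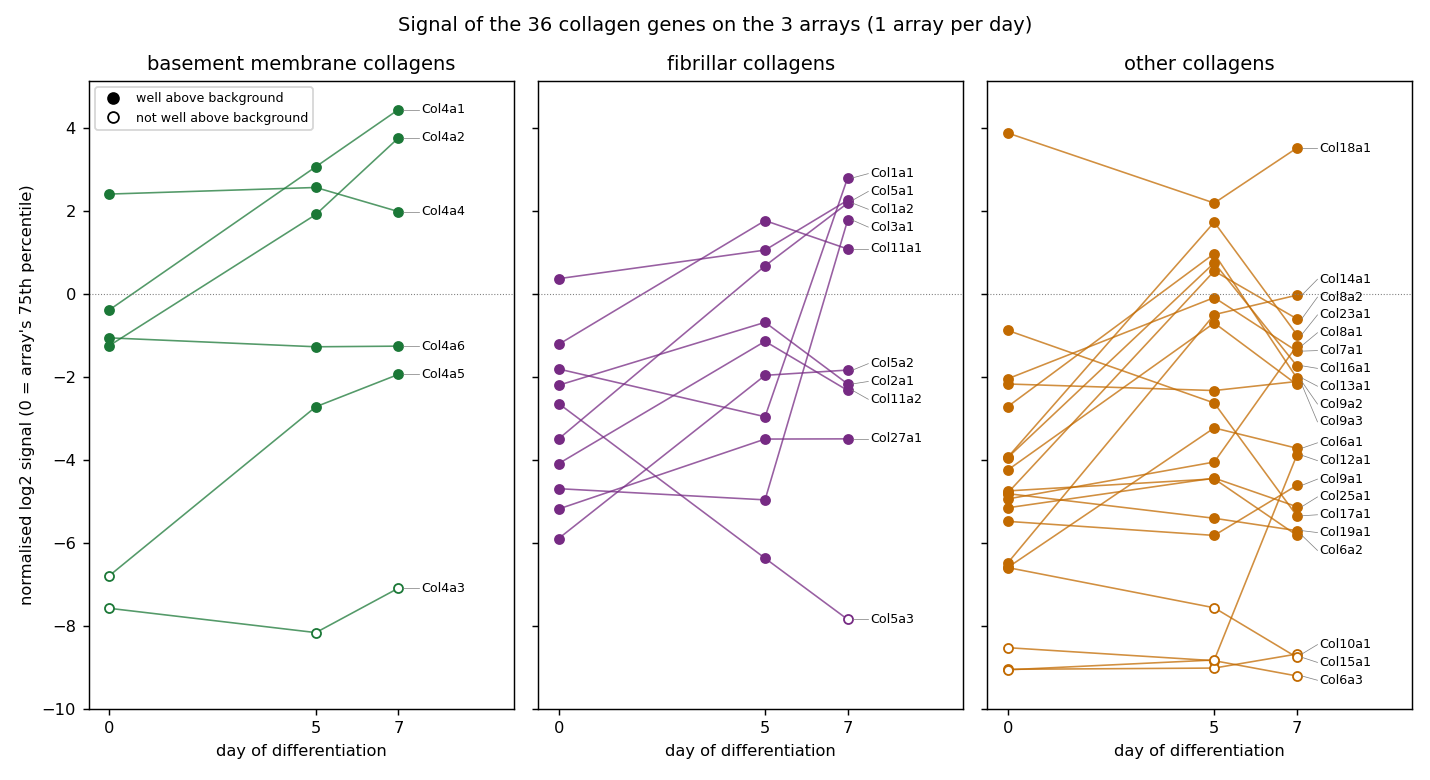
Normalised log2 signal of the representative probe of each collagen gene (vertical axis, 0 is the array's 75th percentile) against day of differentiation (horizontal axis), 1 array per day, with filled points well above background and open points not. Col4a1 and Col4a2 climb at each step, Col1a1 and Col3a1 stand far higher on day 7 than on either earlier day, and a group of the other collagens peaks on day 5. Heights of different genes are not comparable, since each is read by its own probe.

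Collagen genes were more often higher than lower on both differentiated days against ES cells. On day 5, 17 of the 33 genes stood at least 2-fold above day 0, beside 16.5% of all 21653 genes compared, and 4 stood at least 2-fold below it, beside 16.1% of all genes. Their median log2 difference was 1.52, against -0.11 over all genes. On day 7, 19 stood at least 2-fold above day 0 (16.2% of all genes) and 3 were lower (19.1% of all genes), and the median was 1.89, against -0.19 over all genes. From day 5 to day 7 the genes went both ways: 10 were higher on day 7 (5.97% of all genes) and 10 were lower (8.38% of all genes), with a median of 0.00, against -0.06. Since the 17 and the 19 genes are read against the same ES cell array, the counts are not independent of each other. The counts depend on how the background was corrected. The correction planned as an alternative, a normexp model of each spot's signal and local background, gave 8 genes higher and 13 lower on day 5 than on day 0 with a median of 0.00, and 7 higher and 8 lower on day 7 than on day 0 with a median of -0.39. Between days 7 and 5 it gave 15 genes higher and 3 lower. Under it all genes shifted as well, with 44.2% lower on day 5 and 39.5% lower on day 7 than on day 0. The model was refitted without the few spots whose signal lay below their local background, a choice made after seeing the data and called the other background correction below. Both fits add an offset of 50 to each signal, which by itself makes differences from dim signals smaller. The refit gave medians of 0.76 for day 5 and 1.06 for day 7 against day 0, with 16 and 18 genes higher and 4 and 2 lower.

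Call by call, the planned correction kept 11 of 21 calls between days 5 and 0, 10 of 22 between days 7 and 0, and 13 of 20 between days 7 and 5. For day 5 against day 0 it ended the calls of Col2a1, Col11a2, Col4a5, Col6a1, Col7a1, Col9a3, Col14a1 and Col18a1, and turned those of Col5a2 and Col27a1 to lower. For day 7 against day 0 it ended the calls of Col5a2, Col11a2, Col4a5, Col6a1, Col8a1, Col8a2, Col9a3, Col12a1, Col14a1, Col16a1 and Col23a1, and turned that of Col27a1 to lower. For day 7 against day 5 it ended those of Col2a1, Col11a2, Col7a1, Col8a2, Col9a3 and Col17a1, and turned that of Col6a2 to higher. The calls of Col1a1, Col1a2, Col3a1, Col4a1 and Col4a2 were kept in each comparison where they had one, while Col3a1 gained one, lower on day 5 than on day 0 (-2.97 on the log2 scale, in place of -0.27). The other background correction kept 20 of 21, 20 of 22 and 18 of 20 calls.

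**Figure D2:**
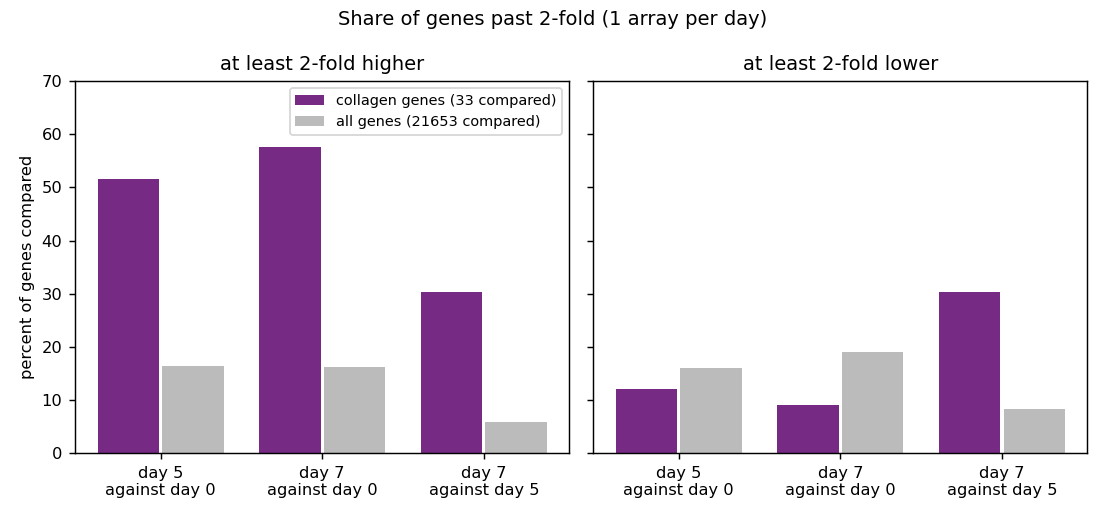
Percent of the 33 collagen genes and of all 21653 genes (vertical axis, starting at 0) that were at least 2-fold higher (left) or lower (right) in each comparison of days. The collagen bars for higher signal stand above those of all genes in each comparison, and the collagen bar for lower signal does so for day 7 against day 5 only.

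Sorted by their order over the days, the genes fell into 12 patterns. In 9 genes no comparison reached 2-fold, and these hold the 3 genes that were dim on every array. Another 6 were higher on both differentiated days than on day 0 and within 2-fold between days 5 and 7: Col5a2, Col11a1, Col27a1, Col4a5, Col6a1 and Col14a1. A further 5 were higher on both days but lower on day 7 than on day 5 (Col11a2, Col8a2, Col9a3, Col16a1 and Col23a1), and 3 were higher on day 5 alone (Col2a1, Col7a1 and Col13a1). In 4 genes, Col3a1, Col5a1, Col8a1 and Col12a1, only the day 7 signal stood at least 2-fold above the others, and in 3, Col1a2, Col4a1 and Col4a2, the signal was at least 2-fold higher at each step. The remaining 6 genes each had a pattern of their own: Col1a1, Col18a1, Col17a1, Col5a3, Col9a1 and Col6a2. The patterns were not counted over all genes, so whether any of them is unusual for collagens was not tested. Their calls against day 0 also share the same ES cell array. In Col4a5, Col6a1, Col12a1, Col5a3 and Col15a1 the pattern rests in part on lower limits.

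**Figure D3:**
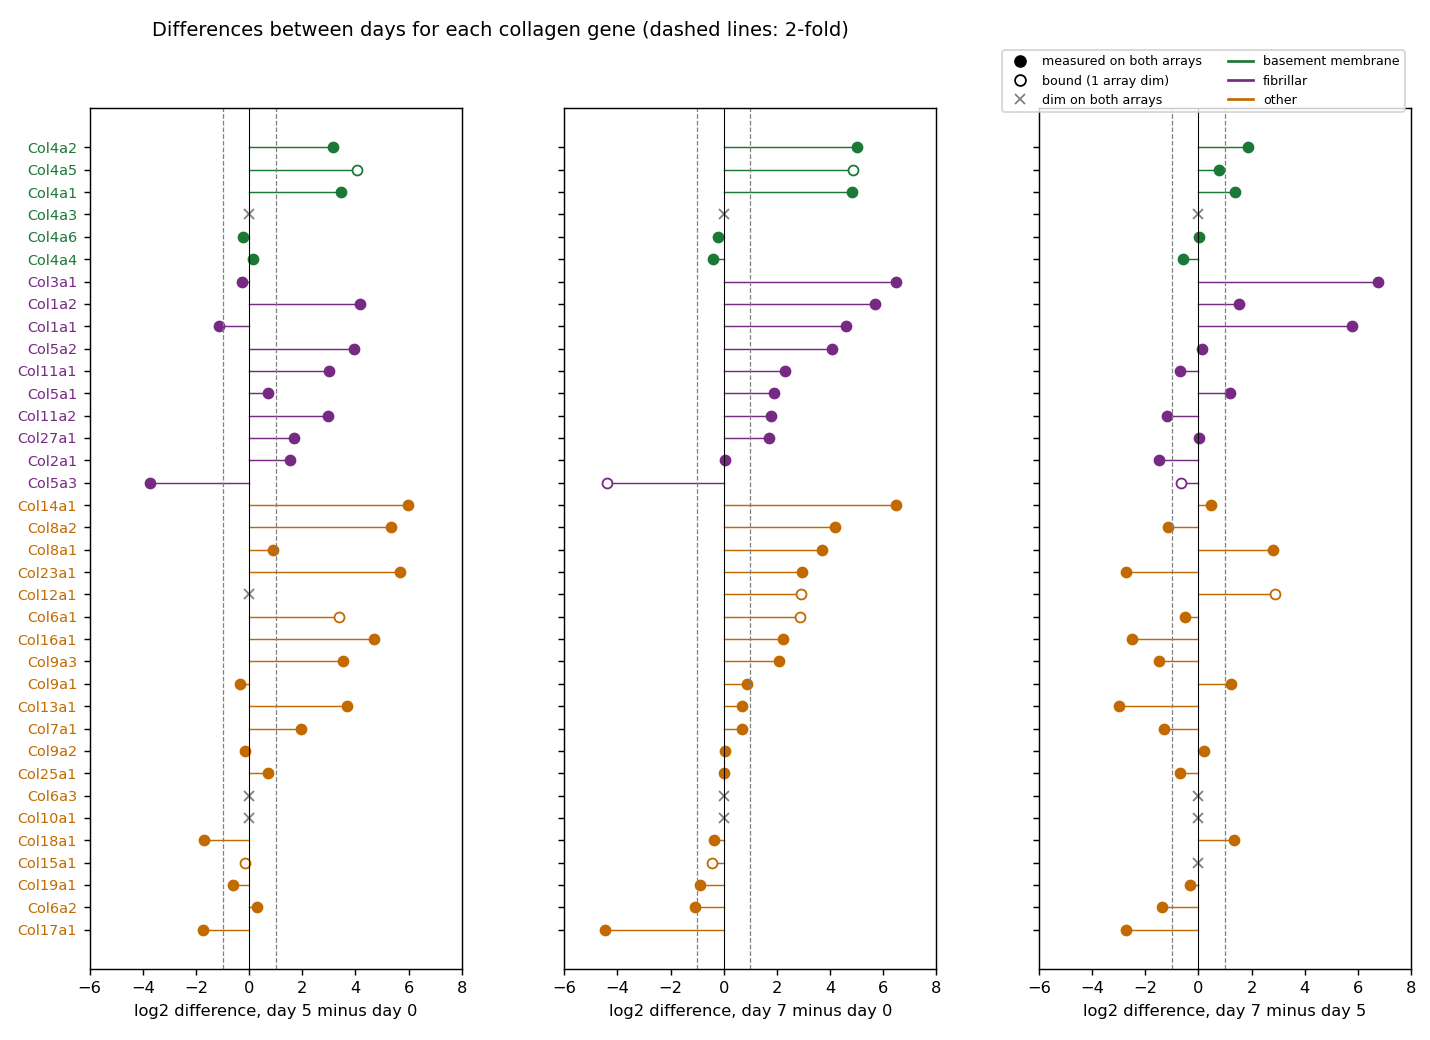
Log2 difference of each collagen gene (rows, ordered within class by the day 7 minus day 0 difference) for day 5 minus day 0, day 7 minus day 0 and day 7 minus day 5 (horizontal axes, log2). Filled points were measured on both arrays, open points are lower limits, crosses were dim on both arrays, and the dashed lines mark 2-fold. The transmembrane genes Col13a1, Col23a1 and Col17a1 lie left of the line in the last panel, and Col3a1 and Col1a1 lie farthest right there.

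The basement membrane genes Col4a1 and Col4a2, whose chains form the collagen IV network found under nearly all epithelia, were higher at each step. Col4a1 (chr8:11199009-11199068, minus strand, mm9) had a normalised log2 signal of -0.38 on day 0, 3.08 on day 5 and 4.46 on day 7. Its signal was higher than on day 0 by 3.45 (log2) on day 5 and by 4.83, or 28.5-fold, on day 7, and was 2.60-fold higher on day 7 than on day 5. Col4a2 (chr8:11448840-11448899, plus strand) had -1.24, 1.92 and 3.77 on days 0, 5 and 7. The day 7 signal of Col4a2 was 32.2-fold that of day 0 and 3.60-fold that of day 5. Both genes moved alike: their day 7 minus day 0 differences were 4.83 and 5.01 on the log2 scale. The second probe of each gene gave a like picture, with day 7 minus day 0 differences of 4.55 for Col4a1 and 4.84 for Col4a2.

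In the mouse genome these genes stand head to head and are read in opposite directions, with annotated starts 21 bases apart. The whole stretch from one start to the other, chr8:11312805-11312826 in GRCm38.p6 (plus strand, RefSeq), is 22 bases long and is shown because both genes begin in it. Col4a1 starts at its higher end and Col4a2 at its lower end, so the genes overlap and these bases lie in both.
Col4a1-Col4a2: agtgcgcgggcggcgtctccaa

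The other basement membrane pair, Col4a5 and Col4a6 on the X chromosome, is also head to head, but without overlap, with starts 1343 bases apart. Col4a5, whose chain joins those of Col4a3 and Col4a4 in the kidney's filter, was not well above background on day 0 (-6.79) and had -2.71 on day 5 and -1.93 on day 7. Its signal therefore exceeded that of day 0 by at least 16.9-fold on day 5 and by at least 29.0-fold on day 7. With the other background correction these 2 log2 differences of Col4a5 were 1.93 and 2.61, in place of 4.08 and 4.86.

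For Col4a6 the answer depended on the probe. The representative probe had -1.05, -1.27 and -1.25 on days 0, 5 and 7 and so stayed within 2-fold. A probe of Col4a6 1443 bases away had -5.26, -0.53 and 0.30, which is 4.73 higher on day 5 and 5.55 higher on day 7 than on day 0 (log2). The remaining probe was dim on day 0 and at least 2.44 higher on day 5 and 2.88 higher on day 7. Taking the median over probes, as an alternative, gave Col4a6 a log2 difference of 2.44 on day 5 and 2.88 on day 7 against day 0, so whether Col4a6 is called higher depends on the choice of probe.

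Col4a4 had 2.42, 2.58 and 1.99 on days 0, 5 and 7 by its representative probe, within 2-fold throughout. The other Col4a4 probe, 2245 bases away, had only -8.5, -6.7 and -6.0 and was well above background on day 7 alone. The probes thus disagree on whether Col4a4 gave a signal above background on days 0 and 5. The listed position of the representative probe, chr1:82447298-82447326 in mm9, is shorter than the probe itself. Which probe reads Col4a4 was not tested. Col4a3, the remaining chain of that network, stayed dim by all 3 of its probes. Thus 3 of the 5 basement membrane genes compared were higher on day 5 and on day 7 than on day 0 (16.5% and 16.2% of all genes). From day 5 to day 7, 2 were higher (5.97% of all genes). None was lower in any comparison, beside 16.1%, 19.1% and 8.38% of all genes, which says little for 5 genes. Col4a4 and Col4a6 are counted here by their representative probes.

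Among the fibrillar genes, 6 of 10 (60%) were higher and 2 (20%) lower on day 5 than on day 0, beside 16.5% and 16.1% of all genes. On day 7, 8 were higher and 1 lower than on day 0 (16.2% and 19.1% of all genes), and 4 were higher and 2 lower than on day 5 (5.97% and 8.38% of all genes). The share of lower fibrillar genes on day 5 was thus near that of all genes. The chains of type I collagen, the main collagen of skin, tendon and bone, did not move together at day 5. Col1a1 (chr11:94813075-94813134, plus strand) is printed as 10 spots and had -1.80 ± 0.08 on day 0 and -2.96 ± 0.09 on day 5 (spot SD, 10 spots each), and 2.81 ± 0.05 on day 7 (spot SD, 9 spots). It was 2.22-fold lower on day 5 than on day 0, but 24.5-fold higher on day 7 than on day 0 and 54.3-fold higher on day 7 than on day 5. The day 5 value of Col1a1 fell below 2-fold, to a log2 difference of -0.89, when the median over its probes was taken.

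Col1a2 (chr6:4490619-4490678, plus strand) had -3.49 on day 0, 0.69 on day 5 and 2.20 on day 7. It was thus already higher on day 5, where Col1a1 was lower than on day 0, and its day 7 signal was 51.6-fold that of day 0 and 2.85-fold that of day 5. The other Col1a2 probe, 26846 bases upstream, was dim on all arrays.

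Col3a1, the single chain of type III collagen, which forms fine fibres beside type I in vessels and soft organs, had -4.69, -4.96 and 1.79 on days 0, 5 and 7. Its low values on the first 2 days and its high value on day 7 give log2 differences of 6.48 against day 0 and 6.75 against day 5. These are 5.54 and 5.82 with the other background correction of Col3a1. Its other 2 probes lie 24343 and 27192 bases upstream, and the gain on them was either a lower limit of 0.20 (log2, day 7 against day 0) or not measurable. The median over probes, which left out the probe dim on both arrays, gives 3.34 for Col3a1 against day 0 and 3.46 against day 5.

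The type V chains, minor partners that start and limit the width of type I fibrils, went 3 ways. Col5a1 had 0.38, 1.06 and 2.27 on days 0, 5 and 7, and was 3.71-fold higher on day 7 than on day 0. Col5a2 had -5.89, -1.96 and -1.83, and was 15.3-fold higher on day 5 and 16.7-fold higher on day 7 than on day 0. Its 2 differentiated samples therefore lay close together and far above the ES cells, although the log2 differences of Col5a2 shrank to 2.20 and 2.35 with the other background correction.

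Col5a3 went the opposite way, with -2.64 on day 0, -6.37 on day 5 and a dim -7.85 on day 7. It was 13.3-fold lower on day 5 and at least 21.1-fold lower on day 7 than on day 0. The log2 differences of Col5a3 were -3.73 and -4.40, or -2.15 and -2.42 with the other background correction and -2.28 and -2.75 as the median over its probes. The glycine-repeat probes printed above gave smaller differences. The Col5a1 one differed by 0.59 between day 7 and day 0 (log2), under 2-fold, and the Col5a3 one was lower by at least 1.09 on day 7 than on day 0.

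The chains of type XI collagen, known from cartilage, were highest on day 5. Col11a1 had -1.21, 1.78 and 1.09 on days 0, 5 and 7, which is 7.93-fold higher on day 5 and 4.94-fold higher on day 7 than on day 0. Its other 2 probes were dim on day 0 and higher on day 5 by at least 2.04 and at least 0.29 (log2). The differences of Col11a1, 2.99 and 2.30, were 2.04 and 1.63 as the median over probes and 2.33 and 1.54 with the planned background correction. Col11a2 had -4.09, -1.14 and -2.32, which is 7.73-fold higher on day 5 and 3.40-fold higher on day 7 than on day 0, and 2.27-fold lower on day 7 than on day 5. The glycine-repeat probe of Col11a2 was higher by 1.31 on day 5 and differed by -0.46 on day 7 against day 0, so the day 7 call of Col11a2 is lost (0.66) with the median over probes. With the other background correction Col11a2 was higher by 2.12 on day 5 and 1.06 on day 7.

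Col2a1, the main collagen of cartilage and also made by the notochord, had -2.20 on day 0, -0.68 on day 5 and -2.16 on day 7, a peak of 2.87-fold on day 5 against day 0. A Col2a1 probe that starts 20 bases away and is printed as 10 spots had -3.34, -0.88 and -1.88, with spot SDs of 0.11, 0.07 and 0.08. On that probe Col2a1 was 1.47 higher on day 7 than on day 0 (log2), where the representative probe gave 0.03, so these overlapping probes of 1 gene differed by far more than the spots of the second. The representative probe has 1 spot and so no spot SD. Col27a1, a fibrillar collagen of developing cartilage, had -5.18, -3.50 and -3.49 and was 3.22-fold higher on day 5 and 3.23-fold higher on day 7 than on day 0. With the other background correction both log2 differences of Col27a1 were 0.76, under 2-fold. Another Col27a1 probe, well above background on all arrays, was higher by only 0.84 on day 5 and 0.59 on day 7 than on day 0 (log2). The remaining Col27a1 probe was dim on every array.

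Of the 18 other collagen genes compared, 8 were higher and 2 lower on day 5 than on day 0 (16.5% and 16.1% of all genes). On day 7, 8 were higher and 2 lower than on day 0 (16.2% and 19.1% of all genes), and 4 were higher and 8 lower than on day 5 (5.97% and 8.38% of all genes). The fibril-associated types coat fibres and link them to their surroundings. Col14a1, known from skin and tendon, had -6.48 on day 0, -0.49 on day 5 and -0.02 on day 7, and so was 63.6-fold higher on day 5 and 88.1-fold higher on day 7 than on day 0. Its log2 differences of 5.99 and 6.46 were 3.84 and 4.35 with the other background correction, and its other probe, 175700 bases upstream, was dim throughout.

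Col16a1 had -3.94, 0.76 and -1.73 on days 0, 5 and 7. Against day 0 it was higher by 4.70 (log2) on day 5 and by 4.64-fold on day 7, and it was 5.59-fold lower on day 7 than on day 5. Col12a1, a tendon and skin collagen, was dim on days 0 and 5 and had -3.88 on day 7, which is at least 7.51-fold above day 0 and at least 7.36-fold above day 5. With the other background correction those 2 log2 differences of Col12a1 were 1.36 and 1.69.

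The chains of type IX collagen decorate type II fibrils in cartilage and assemble with each other, yet they had 3 different patterns. Col9a3 had -4.24, -0.69 and -2.18 on days 0, 5 and 7, 11.7-fold higher on day 5 and 4.18-fold higher on day 7 than on day 0. The log2 differences of Col9a3, 3.55 and 2.06, were 2.87 and 1.49 with the other background correction, and 0.34 and -0.58 with the planned one. Col9a2 had -2.17, -2.32 and -2.11, with no difference of 2-fold. Col9a1 had -5.48, -5.82 and -4.61, which is 2.31-fold higher on day 7 than on day 5, a call that Col9a1 loses (0.58 on the log2 scale) with the other background correction. Col19a1, a rare type best known from muscle and brain, had -4.81, -5.41 and -5.71 and stayed within 2-fold.

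The short-chain network collagens of type VIII, found in the cornea and in vessel walls, peaked on different days. Col8a2 had -4.79, 0.56 and -0.59 on days 0, 5 and 7, and was 40.9-fold higher on day 5 and 18.4-fold higher on day 7 than on day 0. The log2 differences of Col8a2, 5.35 and 4.20, were 4.33 and 3.25 with the other background correction and 1.39 and 0.41 with the planned one. Col8a1 had -4.94, -4.05 and -1.24, and was 13.0-fold higher on day 7 than on day 0 and 6.99-fold higher on day 7 than on day 5. The day 7 against day 0 log2 difference of Col8a1 was 3.70, or 2.62 with the other background correction. Day 5 was thus the high sample for Col8a2 and day 7 for Col8a1.

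Transmembrane collagens are anchored in the cell surface. At least 2-fold lower on day 7 than on day 5 were 3 of the 4 (8.38% of all genes), which says little for 4 genes. Col23a1 had -3.93, 1.74 and -0.97 on days 0, 5 and 7, which is 51.0-fold higher on day 5 and 7.78-fold higher on day 7 than on day 0, and 6.55-fold lower on day 7 than on day 5. Its other probes agreed in direction, with day 5 minus day 0 differences of 7.03 and at least 3.06 on the log2 scale. Col13a1 had -2.71, 0.98 and -2.02, and was 12.9-fold higher on day 5 than on day 0 and lower on day 7 than on day 5 by a log2 difference of -3.00, so its day 7 value had returned to within 2-fold of ES cells. The median over the probes of Col13a1 gave 2.60 in place of 3.69 for day 5 against day 0.

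Col17a1, a hemidesmosome protein that ties skin cells to their basement membrane, was the only one of the 36 genes called lower at each step. Its signals were -0.87 on day 0, -2.62 on day 5 and -5.35 on day 7. It was 3.37-fold lower on day 5 and 22.2-fold lower on day 7 than on day 0, and 6.60-fold lower on day 7 than on day 5. The second Col17a1 probe was also lower, by 1.76 on day 5 and at least 3.28 on day 7 against day 0 (log2), and with the other background correction the day 7 difference of Col17a1 was -3.39. Col25a1, a neuronal member, had -5.15, -4.44 and -5.13 and stayed within 2-fold.

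The multiplexins lie in the zone around basement membranes and can release anti-angiogenic fragments. Col18a1, the source of endostatin, had 3.89 on day 0, 2.20 on day 5 and 3.53 on day 7. It was 3.23-fold lower on day 5 than on day 0 and 2.51-fold higher on day 7 than on day 5, so that day 7 and day 0 were within 2-fold. Its second probe gave the same order, with differences of -1.84 on day 5 against day 0 and 1.37 on day 7 against day 5. Col15a1 was well above background on day 0 alone, at -6.60. It was at least 1.12-fold lower on day 5 and at least 1.36-fold lower on day 7 than on day 0. These lower limits did not reach 2-fold, but they do not exclude a 2-fold difference. Without the bound the day 7 against day 0 log2 difference of Col15a1 was -2.17, and with the planned background correction it was -1.64.

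Type VI collagen, a beaded microfibril found around most cells, is built from the products of Col6a1, Col6a2 and Col6a3, and these were not alike. Col6a1 was dim on day 0 (-6.59) and had -3.23 on day 5 and -3.72 on day 7, at least 10.3-fold and at least 7.34-fold above day 0. The log2 limits of 3.37 and 2.88 for Col6a1 became 1.36 and 1.01 with the other background correction. Col6a2 had -4.75, -4.46 and -5.82, and was 2.10-fold lower on day 7 than on day 0 and 2.57-fold lower on day 7 than on day 5. Its second probe was dim on days 0 and 7 and had -3.03 on day 5, so it was higher by at least 3.77 (log2) on day 5 than on day 0 and had a log2 difference of at most -4.01 on day 7 against day 5. With the median over probes Col6a2 was higher on day 5 than on day 0, by 2.03 in place of 0.29. Both Col6a2 calls of the representative probe are lost with the other background correction (-0.67 and -0.56), and the first also in the authors' deposited table (-0.92) and after quantile normalization (-0.96). Col6a3 was dim on every array.

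Col7a1, the anchoring fibril collagen of skin, had -2.04, -0.08 and -1.37 on days 0, 5 and 7. It was 3.89-fold higher on day 5 than on day 0 and 2.45-fold lower on day 7 than on day 5, the same pattern as Col2a1 and Col13a1.

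Several probes were available for 27 of the 36 genes, which allows a comparison between probes, although the other probes of a gene are by the rule of choice the dimmer ones. The probes of a gene shared their call in 16 genes for day 5 against day 0, in 14 for day 7 against day 0 and in 20 for day 7 against day 5. They differed in 11, 13 and 7 genes, and in none of the 27 did one probe call a gene higher and another lower. Many of the differing probes were dim on all arrays, as for Col1a2, Col14a1 and Col16a1. Being within 2-fold counts as a call in this comparison, also for a probe dim on both arrays. The genes that shared a call thus include Col4a3 and Col6a3, whose probes were all dim on every array. The median over probes left out probes dim on both arrays, so Col1a2, Col14a1 and Col16a1 kept the value of their representative probe alone. With it, 17 of the 63 collagen differences of at least 2-fold became more than 1.5 times smaller, and 2 of the 63 fell under 2-fold.

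**Figure D4:**
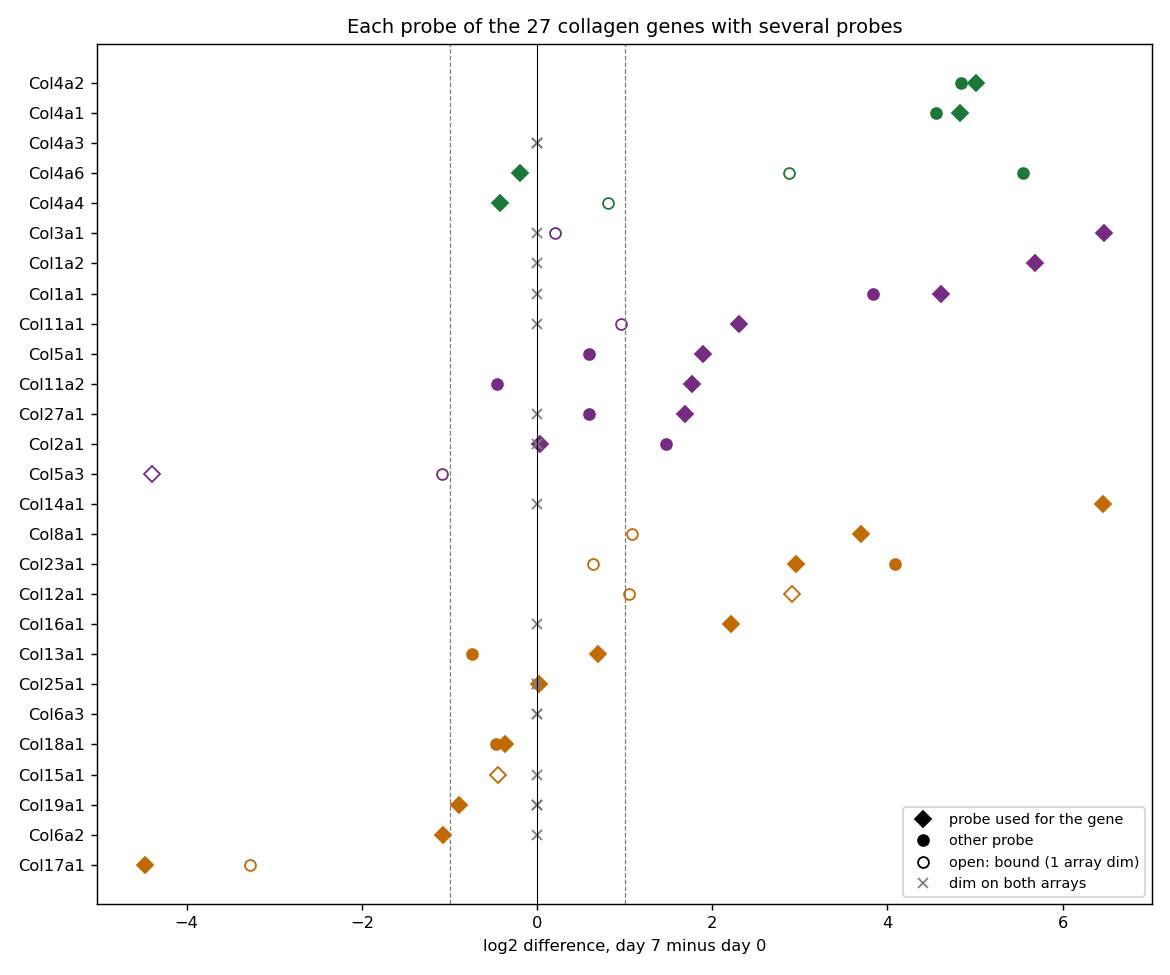
Log2 difference between day 7 and day 0 (horizontal axis, day 7 minus day 0) of every probe of the 27 collagen genes with several probes, 1 gene per line. Diamonds are the representative probes, circles the other probes, open symbols lower limits and crosses probes dim on both arrays; dashed lines mark 2-fold. Probes of Col4a1, Col4a2 and Col18a1 lie close together, while those of Col4a6, Col3a1 and Col1a2 lie far apart.

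The start regions of 29 of the 36 genes were available as RefSeq promoter windows (GRCm38.p6), 32 windows in all, and their 250 upstream bases were searched on both strands for 4 short motifs. GGGCGG, the core of the Sp1-type GC box, was in 19 of the 32 collagen windows (59.4%), against 32.7% of all 32851 windows. CCAAT was in 12 (37.5%) against 33.8%, TATAAA in 5 (15.6%) against 12.4%, and TGTTTAC, a forkhead factor motif, in 1 (3.12%, Col6a1) against 3.17%. Windows are shown for 3 genes with different day patterns: Col1a2 (chr6:4505368-4505617, plus strand), higher at each step, Col3a1 (chr1:45311288-45311537, plus strand), high on day 7 alone, and Col4a5 (chrX:141475169-141475418, plus strand), higher on both differentiated days. Capitals mark motif matches, none of which overlap, and each window ends at the base before the annotated start.
Col1a2: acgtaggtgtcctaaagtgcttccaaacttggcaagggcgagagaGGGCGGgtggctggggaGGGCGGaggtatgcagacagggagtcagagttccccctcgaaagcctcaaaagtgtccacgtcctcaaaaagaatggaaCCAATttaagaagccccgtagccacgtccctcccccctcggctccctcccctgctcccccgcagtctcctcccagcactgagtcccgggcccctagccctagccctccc
Col3a1: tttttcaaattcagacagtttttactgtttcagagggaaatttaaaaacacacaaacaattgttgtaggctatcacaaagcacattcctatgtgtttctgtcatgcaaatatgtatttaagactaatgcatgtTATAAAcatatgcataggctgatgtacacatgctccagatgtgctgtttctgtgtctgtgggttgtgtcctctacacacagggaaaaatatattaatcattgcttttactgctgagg
Col4a5: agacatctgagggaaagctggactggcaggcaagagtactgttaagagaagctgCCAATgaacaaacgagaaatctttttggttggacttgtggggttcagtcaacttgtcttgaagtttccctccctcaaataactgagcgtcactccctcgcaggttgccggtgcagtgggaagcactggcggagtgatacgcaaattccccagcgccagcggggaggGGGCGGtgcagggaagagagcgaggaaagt
The CCAAT of Col1a2 starts at -109 and that of Col4a5 at -196, counted from the annotated start. A match says only that these letters are present.

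The lists of genes around collagen are to be read beside the shares of all genes: 16.5% higher and 16.1% lower on day 5 than on day 0, 16.2% and 19.1% on day 7 than on day 0, and 5.97% and 8.38% on day 7 than on day 5. Making a collagen needs enzymes and chaperones in the endoplasmic reticulum, and none of those followed was at least 2-fold lower on a differentiated day than on day 0. Of 21 genes for collagen modification and folding, 20 could be compared: 5 were higher on day 5 and 8 on day 7 against day 0, and 3 on day 7 against day 5. P3h2, a prolyl 3-hydroxylase of basement membrane collagen, was higher by 4.73 on day 5 and 4.39 on day 7 than on day 0 (log2 differences). Serpinh1, the collagen chaperone HSP47, had signals of 2.53, 5.70 and 6.16 on days 0, 5 and 7. P4ha1, a prolyl 4-hydroxylase subunit, was higher by 2.82 on day 7 than on day 0, and the transcription factor gene Creb3l1 by 3.01. Plod2, a lysyl hydroxylase whose product sets the form of cross-links, had -0.79, -1.39 and 1.06, and so was high on day 7 alone, as were Col1a1 and Col3a1.

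Procollagen processing and cross-linking genes went both ways: of 14 compared, 7 were higher and 3 lower on day 5 than on day 0, 7 were higher and 3 lower on day 7 than on day 0, and 3 were higher and 1 lower on day 7 than on day 5. Pxdn, whose enzyme forms the sulfilimine cross-links of collagen IV, had -1.77, 2.80 and 2.54 on days 0, 5 and 7. The amino-propeptidase genes Adamts3 and Adamts2 were higher by 4.59 and 4.23 on day 7 than on day 0 (log2), and Adamts2 was also higher by 3.05 on day 7 than on day 5. Bmp1, which encodes the carboxy-propeptidase, was higher by 2.28 on day 5 than on day 0. In contrast its enhancers, Pcolce and Pcolce2, were lower by 3.87 and 3.81 on day 5 than on day 0. Among lysyl oxidase genes, which start the cross-links of fibres, Lox was lower by at least 3.18 on day 7 than on day 0, while Loxl2 was higher by 2.90 and Loxl1 by 2.46.

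Of 9 collagen receptor genes compared, 2 were higher and 2 lower on day 5 than on day 0, 4 were higher and 2 lower on day 7 than on day 0, and 2 were higher and none lower on day 7 than on day 5. On day 5 the shares of 22.2% each way lay near those of all genes. Mrc2, an uptake receptor for collagen, was higher by 3.54 on day 5 and 3.68 on day 7 than on day 0 (log2). The receptor kinase genes parted: Ddr1 had 1.82, 2.48 and 3.77 on days 0, 5 and 7, whereas Ddr2 had -3.12, -6.38 and a dim -8.63. Itgb1, the shared beta chain of collagen-binding integrins, was higher by 2.15 on day 7 than on day 0.

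Of 10 genes for breakdown and its inhibitors compared, 7 were higher and 1 lower on day 5 than on day 0, 6 were higher and 1 lower on day 7 than on day 0, and 1 was higher and 1 lower on day 7 than on day 5. The membrane-bound proteases Mmp14 and Mmp15 were higher by 2.91 and 2.84 on day 7 than on day 0 (log2). The inhibitor genes were split, with Timp2 higher by 3.45 and Timp3 by 2.51 on day 7 than on day 0, and Timp1 lower by 2.41.

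The partners of collagen in fibrils and basement membranes gave the most calls on day 7. Of 18 genes, 6 were higher and 4 lower on day 5 than on day 0, 12 were higher and none lower on day 7 than on day 0, and 8 were higher and none lower on day 7 than on day 5. Postn, which encodes the fibril protein periostin, had -6.15, -5.06 and 1.37 on days 0, 5 and 7. Lum, a proteoglycan gene whose product spaces fibrils, was dim on days 0 and 5 and stood at -1.58 on day 7, at least 5.21 higher than on day 0 (log2). Tnc was at least 5.37 and Thbs1 4.98 higher on day 7 than on day 0. Lama1, the laminin chain of early embryonic basement membranes, had 0.71, -2.95 and 1.91, lowest on day 5, while Lamb1 had 2.06, 4.57 and 4.97.

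**Figure D5:**
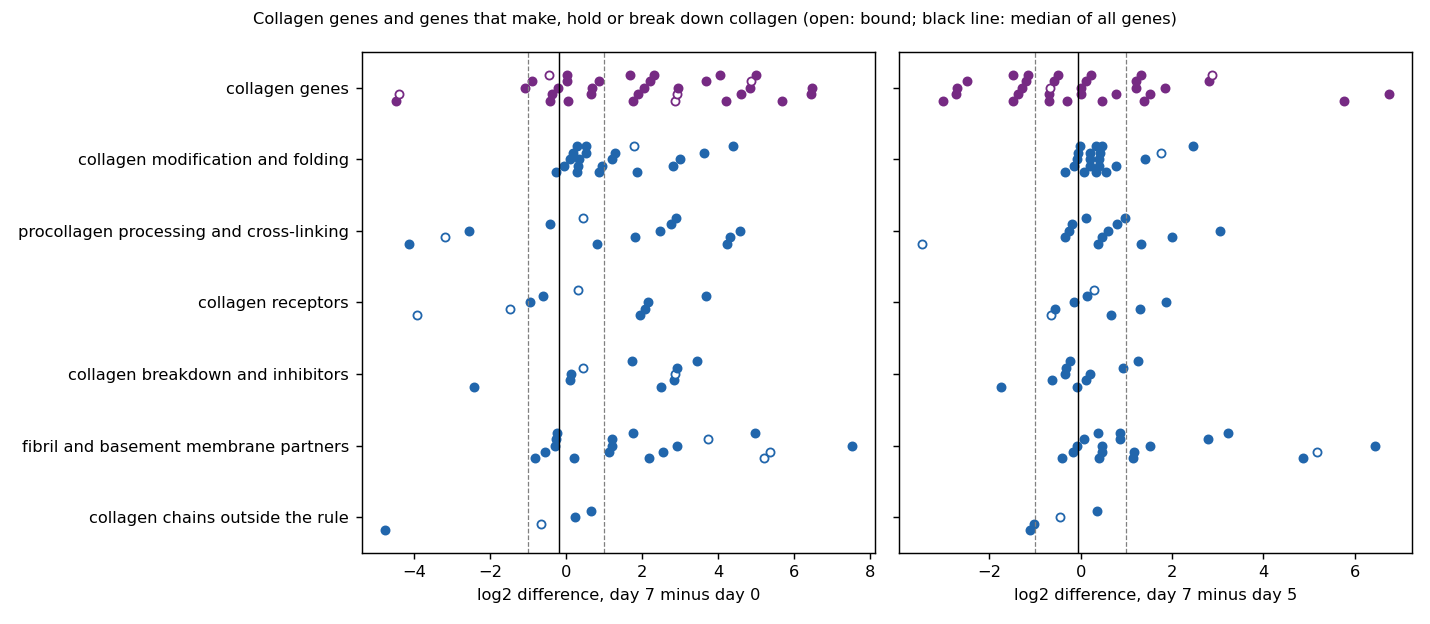
Log2 difference of each compared gene of the collagen genes and of the pathway lists (lines) for day 7 minus day 0 and day 7 minus day 5 (horizontal axes, log2), with open points for lower limits, dashed lines at 2-fold and a black line at the median of all genes. The folding list has no gene at or below -1, and the list of fibril and basement membrane partners extends to 7.52 (Postn) for day 7 against day 0.

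Markers of other cells that make collagen were also read, and their lists did not all move alike. The shares of all genes beside them are 16.2% higher and 19.1% lower on day 7 than on day 0. For day 7 against day 5 they are 5.97% and 8.38%. Of 18 fibroblast and mesenchyme markers, 13 were higher and 1 (Thy1) lower on day 7 than on day 0. From day 5 to day 7, 11 of these markers were higher and 1 (Tcf21) lower. Summed in units of the array's 75th percentile, they came to 15.5, 23.3 and 44.6 on days 0, 5 and 7, of which the 3 brightest genes gave 86.0%, 84.9% and 74.0%, and their single signals ranged from -9.05 to 3.29, from -8.80 to 3.76 and from -6.37 to 3.90 (log2). On day 0, 4 of these markers were dim (Dcn, Lum, Tcf21 and Foxf1), on day 5 the 2 genes Lum and Foxf1, and on day 7 none; Dcn, Lum and Postn are also in the partner list. All 8 cardiac and lateral mesoderm markers passed the 2-fold limit upward on day 7 against day 0, with summed levels of 0.993, 4.29 and 13.2 on days 0, 5 and 7. From day 5 to day 7, the step at which Col1a1 and Col3a1 stood apart, 5 of these 8 were higher. So were 5 of 7 early liver markers, and none of either list was lower. Of 6 endothelial markers 2 were higher and 1 lower at that step, and of 7 cartilage and notochord markers 2 were higher and 2 lower.

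Of 13 visceral and parietal endoderm markers, cells that lay down much of the embryo's collagen IV, 11 were higher and 2 lower on day 7 than on day 0, and 8 were higher and 3 lower on day 5 than on day 0. From day 5 to day 7, 9 of the 13 markers were higher and 1 lower. On days 0, 5 and 7 they summed to 36.3, 92.9 and 246.5, but the sum adds signals of different probes and rests on few genes: Sparc, Dab2 and Lamb1 made up 82.2% of it on day 7. The median signal of the 13 genes was -1.51, -1.31 and 1.91 (log2). Lama1, Lamb1 and Sparc are shared with the partner list. These counts and those below stand beside 16.2% of all genes higher and 19.1% lower on day 7 than on day 0. The shares are 16.5% and 16.1% for day 5 against day 0, and 5.97% and 8.38% for day 7 against day 5. Of 7 cartilage and notochord markers compared, 4 were higher and 1 lower on day 5 than on day 0, and 2 were higher and 2 lower on day 7 than on day 0. Among them Sox9, the factor that drives Col2a1 and Col11a2 in cartilage, had -5.72 on day 0, -1.74 on day 5 and 0.00 on day 7, Shh was well above background on day 5 alone, and Runx2 was dim on every array. Endothelial markers were split, with 2 of 6 higher and 3 lower on day 7 than on day 0, and of 4 neural markers 1 was higher and 1 lower. The part of any of these cells in the collagen values was not tested.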

How the data were processed

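Total RNA of 3 samples was labelled with Cy3 and read on 1 Agilent array each, all on 1 slide. Per the file headers, the authors extracted the scans with Agilent Feature Extraction 10.5.1.1, probe positions are those of mm9 (NCBI37), and the deposited intensity is a linear, background-corrected processed signal per spot. The authors' deposited table holds log2 values with the same median (7.17) in each column, and its columns correlated with log2 of the processed signal at r = 0.9998 or above across probes. The equalising step was not given in the sources used here.

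Control spots and spots marked non-uniform or as population outliers (149, 104 and 131 on days 0, 5 and 7) were left out, each array's 75th percentile over 43379 gene spots was subtracted from log2 signal, and values were averaged per probe. Saturation was marked on 0 gene spots. A probe was well above background where more than 50% of its spots were marked so. For a dim probe, its own value or the array's lowest value well above background was taken, whichever was higher (-6.79, -6.76 and -7.04 on days 0, 5 and 7), and genes dim on both sides of a comparison count as a difference of 0. Of all probes, 24776 were named through RefSeq accessions, 6037 through symbols and 10287 by the name in the files. Python 3.11.15 with pandas 2.3.3 and numpy 2.4.6 was used. Calls were tested on simulated data with shifts of known size.

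All 36 members are named, and of the pathway lists up to 4 genes higher and up to 4 lower per comparison. The members and lists were chosen with earlier results of these data known. No test was possible with 1 array per day, and each day's sample is a single culture as far as the labels tell.

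The alternatives were quantile normalization, median scaling, the percentile over probes bright on all arrays, the authors' table, no filter, a stricter filter, the median over probes, marked spots kept and normexp background correction (R 4.3.3, limma 3.58.1, offset 50). The median over probes left out probes that were dim on both arrays compared. The normexp fit met a few spots far below their local background on days 0 and 7. The lowest signal minus background was -60709 and -9753 there, against -36 on day 5. A fit without any spot below its local background and with the same offset was therefore added after seeing the data. It is the "other background correction" of the text.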

Additional observations from a re-analysis of the deposited data

How the results depend on the processing

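Of the 63 collagen differences of at least 2-fold, 31 kept their call under every one of the 10 alternatives that gave a value, and 56 did so when the planned normexp correction was set aside. The stricter filter gave a value for 55 of the 63. That fit met 7, 36 and 6 spots below their local background on days 0, 5 and 7, the lowest on day 0 at a signal minus background of -60709, and estimated a background mean of -1240, -12.7 and -344, against 4.49, 0.525 and 1.91 without those spots. With it, 8 collagen genes were higher and 13 lower on day 5 than on day 0 (median 0.00), 7 higher and 8 lower on day 7 than on day 0 (median -0.39), and 15 higher and 3 lower on day 7 than on day 5 (median 0.70, with 29.0% of all genes higher), while 44.2% of all genes were lower on day 5 and 39.5% on day 7 than on day 0. Its sign differed for day 5 against day 0 in Col5a2 (-1.01), Col11a2 (-0.62) and Col27a1 (-2.28), for day 7 against day 0 in Col5a2 (-0.46), Col11a2 (-0.94), Col27a1 (-1.23), Col8a1 (-0.09), Col9a3 (-0.58) and Col16a1 (-0.44), and for day 7 against day 5 in Col6a2 (1.28). The refitted correction gave medians of 0.76 and 1.06 for days 5 and 7 against day 0 and made 27 of the 63 differences over 1.5 times smaller. Without a filter or bound the medians were 0.80, 1.73 and -0.15 for day 5 against day 0, day 7 against day 0 and day 7 against day 5. With genes bright on all arrays the last was -0.15, and the median over probes gave 1.99 and 1.63 for days 5 and 7 against day 0. The cause of the other changes was not tested. Median scaling moved the median of all genes for day 5 against day 0 to -0.22 in place of -0.11, with the collagen median at 1.41. No paired analysis was possible because each day has 1 array. Dim signals, such as those of Col5a2, Col14a1 and Col6a1 on day 0, depend most on the background correction with its offset of 50. Their day 0 intensities were 26.3, 17.5 and 16.2 before it, so the offset alone makes their differences smaller. The part of the offset was not separated from that of the fit.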

Other observations

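Collagen chains that the 36 names leave out were also read. Of 8 such genes, 6 had a probe and 4 could be compared. Col6a4, a further type VI chain, had a normalised log2 signal of -0.99 on day 0, -4.64 on day 5 and -5.76 on day 7, a difference of -3.65 on day 5 and -4.77 on day 7 against day 0, where Col6a1 was higher. Col22a1, known from muscle and tendon junctions, was higher by 1.26 on day 5 than on day 0 and different by -1.03 on day 7 against day 5, the order also seen in Col2a1, Col7a1 and Col13a1. Col24a1 and Col26a1 stayed within 2-fold in each comparison.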
